A study of Mus musculus with 2 samples.

Results

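Lsamp, Opcml, Ntm, Negr1, Nrxn3 and Csmd1 are 6 genes best known from nerve cells that were read here in the progenitors of mouse fat, as 6 of the 32246 gene symbols in the count matrices. They were picked by symbol, with earlier results of these libraries known, so their levels and ratios below are a description with no test. The data are 2 droplet single-cell RNA libraries, 1 from mice with a Paqr4 transgene (Paqr4 transgenic) and 1 from WT mice. The submitters describe both as prepared from subcutaneous white fat, digested with collagenase, treated to lyse red cells and sorted by flow cytometry for CD45- cells. Cells of 3 mice were pooled, and strain, age, sex and the promoter of the transgene are not given in the sources used here. With 1 library per genotype, no value has a replicate, and every interval below is a 95% interval for counting error only.

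IgLON proteins are small cell-surface molecules made of immunoglobulin domains, held to the membrane by a GPI anchor, and they bind each other within and between cells. Lsamp, Opcml, Ntm and Negr1 belong to this family, which steers neurite growth and synapse number in the brain, and NEGR1 is a locus linked to human body mass. Nrxn3 is a neurexin, a presynaptic receptor that binds neuroligins, LRRTM proteins and cerebellins, and Csmd1 codes for a very large membrane protein of CUB and sushi domains that is described as a brake on complement. Fat progenitors form a gradient of states, in which Dpp4+ cells are interstitial and early, Icam1+ cells are committed to the adipocyte lineage and F3+ cells are described as regulators of the others.

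All 6 are very long genes, positioned here by GENCODE M21 on GRCm38. Lsamp lies on the plus strand at chr16:39984361-42181679 and spans 2.20 Mb, the fifth longest of 32094 genes. Opcml, on the plus strand at chr9:27790775-28925410, and Ntm, on the minus strand at chr9:28994750-29963141, are neighbours on chromosome 9. Negr1 lies on the plus strand at chr3:156561794-157316445 and spans 0.755 Mb. Nrxn3, on the plus strand at chr12:88722876-90334935, and Csmd1, on the minus strand at chr8:15892537-17535586, rank 10 and 9 by span. Counted genes that overlap them reached at most 1.98 UPM, that is, UMIs (unique molecular identifiers, one per captured RNA molecule) per 1000000 UMIs of a population.

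Promoter windows of 250 bases before the start are given by RefSeq on GRCm38.p6 for 5 of the 6 members. The windows of Lsamp, Opcml, Negr1 and Nrxn3, the 4 members whose level was lower in the Paqr4 transgenic library and which had the most UMIs, are shown so that their sequence can be set side by side. The Nrxn3 window shown belongs to an internal start, far inside the gene as positioned above, unlike those of Lsamp and Negr1. Capitals mark TATAA and GGGCGG, the cores of the TATA box and the GC box, searched on both strands.
Lsamp, chr16:39984114-39984363, plus strand: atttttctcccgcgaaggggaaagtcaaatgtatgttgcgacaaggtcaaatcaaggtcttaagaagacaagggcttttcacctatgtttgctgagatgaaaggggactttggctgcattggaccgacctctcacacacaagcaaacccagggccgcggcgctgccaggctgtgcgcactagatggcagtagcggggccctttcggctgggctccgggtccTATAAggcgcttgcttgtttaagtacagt
Opcml, chr9:27791049-27791298, plus strand: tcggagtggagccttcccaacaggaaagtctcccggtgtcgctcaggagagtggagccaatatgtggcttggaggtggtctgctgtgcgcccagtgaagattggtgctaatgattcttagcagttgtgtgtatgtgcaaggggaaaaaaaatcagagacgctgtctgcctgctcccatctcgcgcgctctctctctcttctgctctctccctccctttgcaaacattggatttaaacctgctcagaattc
Negr1, chr3:156561544-156561793, plus strand: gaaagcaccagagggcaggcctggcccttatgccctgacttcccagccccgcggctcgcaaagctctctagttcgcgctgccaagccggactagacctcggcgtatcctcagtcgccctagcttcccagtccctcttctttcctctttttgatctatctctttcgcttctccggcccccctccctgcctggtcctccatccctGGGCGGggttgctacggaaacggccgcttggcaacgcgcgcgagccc
Nrxn3, chr12:89812233-89812482, plus strand: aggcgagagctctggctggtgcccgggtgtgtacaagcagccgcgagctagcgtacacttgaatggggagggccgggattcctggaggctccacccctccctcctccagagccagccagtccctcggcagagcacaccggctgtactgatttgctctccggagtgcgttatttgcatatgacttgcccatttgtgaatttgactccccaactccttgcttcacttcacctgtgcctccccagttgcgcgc
Lsamp alone of these 4 windows held TATAA, which began 29 bases before the start and which 22.8% of all 32851 windows hold. Negr1 alone of these 4 held GGGCGG, found in 32.7% of all windows. CG dinucleotides numbered 12 in Lsamp, 8 in Opcml, 19 in Negr1 and 12 in Nrxn3 in the windows shown, against a median of 6 over all windows. The other window of Lsamp held 3, and the other windows of Nrxn3 held 2 and 5, so the count depends on the start. TCAGCACC, part of the motif of the neural repressor REST, was in none of the members' windows and in 1.32% of all. A method that reads the 3′ end of transcripts does not show which start was used.

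Cells with at least 1000 UMIs, at least 500 genes and at most 10% mitochondrial UMIs numbered 1512 in the Paqr4 transgenic library and 1326 in the WT library after doublets were removed, out of totals of 43084906 and 44145257 UMIs. No cell barcode was shared. Progenitors, which had all 9 listed progenitor markers at 20 UPM or more in both libraries, made up 1354 Paqr4 transgenic and 1129 WT cells, at medians of 19335 and 22694 UMIs. Xist, made from the silenced X chromosome of female cells, was in 0.222% of Paqr4 transgenic and 94.3% of WT progenitors, and a Y-linked gene in 94.2% and 2.04%. The libraries thus differed in sex too, and genotype and sex cannot be told apart in any ratio below. Paqr4 itself stood at 9.52 UPM (8.38 to 10.8) in Paqr4 transgenic and 7.88 UPM (6.83 to 9.04) in WT progenitors, a log2 ratio of 0.27 (0.00 to 0.55). The sum of 10 neuron markers was 17.8 and 18.6 UPM in Paqr4 transgenic and WT progenitors, and that of 10 Schwann markers 17.6 and 20.2 UPM, with none of either list at 20 UPM.

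Across all progenitors, the 4 IgLON genes and Nrxn3 were lower in the Paqr4 transgenic than in the WT library, and Csmd1 was higher. Of the 5 members at 10 UPM or more in a library, 3 were lower by at least 1 log2 unit (Lsamp, Opcml and Nrxn3), where 0.778% of the 8744 genes at that level were, and 1 was higher (Csmd1), where 0.755% were. Ntm stayed below 10 UPM in both libraries. In Dpp4-like cells, of 5 members at 10 UPM or more, 2 were lower (Lsamp and Nrxn3, with a background of 1.89%) and 1 higher (Csmd1, 1.7%). In Icam1-like cells, of 5 members, 2 were lower (Lsamp and Nrxn3, 1.48%) and 0 higher (0.933%). In F3-like cells, of 6 members, 4 were lower (Lsamp, Opcml, Ntm and Nrxn3, 1.86%) and 1 higher (Csmd1, 1.66%). Several of these calls crossed 1 log2 unit under other settings. In F3-like cells, Nrxn3 was at −0.35 after thinning to 5000 UMIs and −0.79 without the 5 richest cells, and at resolution 1.0 Nrxn3 was at −0.98, Ntm at −0.89 and Csmd1 at 0.63. Csmd1 was at 0.99 there with the members left out of clustering. In Dpp4-like cells, Nrxn3 was at −0.91 when each library was clustered alone. The members were chosen with this contrast known, so nothing is read from these counts. The median log2 ratio of all genes at that level was 0.09.

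Lsamp, the limbic system-associated membrane protein, had 18.0 UPM (16.4 to 19.7) in Paqr4 transgenic and 111 UPM (107 to 115) in WT progenitors. The log2 ratio was −2.62 (−2.77 to −2.48). It was a gene of few cells, with a UMI in 5.02% of Paqr4 transgenic and 17.4% of WT progenitors, and in 3.67% and 12.6% once each cell was thinned to 5000 UMIs. Cells that had it held a median of 2.5 UMIs in the Paqr4 transgenic and 7 in the WT library, and the 5 richest cells held 34.2% and 17.5% of its UMIs. Both the share of cells and the UMIs per positive cell were thus lower in the Paqr4 transgenic library.

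Lsamp was highest in F3-like cells among the 3 named states in both libraries, at 57.3 UPM (50.8 to 64.3) in Paqr4 transgenic and 280 UPM (261 to 300) in WT cells, a log2 ratio of −2.29 (−2.49 to −2.10). Dpp4-like cells had 6.16 UPM in the Paqr4 transgenic and 93.1 UPM in the WT library (log2 −3.92, −4.55 to −3.35), and 1 WT cell held 170 of the 574 WT UMIs. Icam1-like cells had 2.69 and 91.6 UPM in Paqr4 transgenic and WT cells (log2 −5.09, −5.79 to −4.46). The WT level of the Icam1-like cells rested on a small cluster led by Tenm4 and Robo2, cluster 8, with 427 UPM in 45 WT cells against 3 UMIs in 19 Paqr4 transgenic cells. In the larger Icam1-like cluster 0, led by G0s2, Cxcl14 and Plin2, Lsamp had 2.39 UPM in Paqr4 transgenic and 27.0 UPM in WT cells, and the log2 ratio was −3.49 (−4.30 to −2.77). At resolution 1.0, which divided the cells differently, the ratio of the Icam1-like cells was −2.72. In the WT library the levels of Dpp4-like and Icam1-like cells had overlapping intervals, and in the Paqr4 transgenic library those of Dpp4-like and Icam1-like cells overlapped only narrowly, at 4.02 to 9.03 and 1.67 to 4.12 UPM.

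3 large progenitor clusters matched no named state. Cluster 1 was led by Il6, Procr and Thbd, cluster 4 by Ppp2r2b, Nrxn3 and Cyp26b1, and cluster 5 by Itgbl1 and Tgfbi. Lsamp had 3.24 UPM in Paqr4 transgenic and 52.6 UPM in WT cells of cluster 1, 15.9 and 160 UPM in cluster 4, and 20.5 and 70.9 UPM in cluster 5. The Paqr4 transgenic level was the lower one in each of these clusters and named states, and no interval of the ratio reached 0. These intervals are too narrow, since few cells held the Paqr4 transgenic UMIs, such as 4 cells with 39 UMIs in cluster 4. Intervals of the share of cells with a UMI overlapped in cluster 5, at 3.16 to 12.5% in Paqr4 transgenic and 10.3 to 29.7% in WT cells. They did not overlap in clusters 1 and 4 or in the named states.

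**Figure D1:**
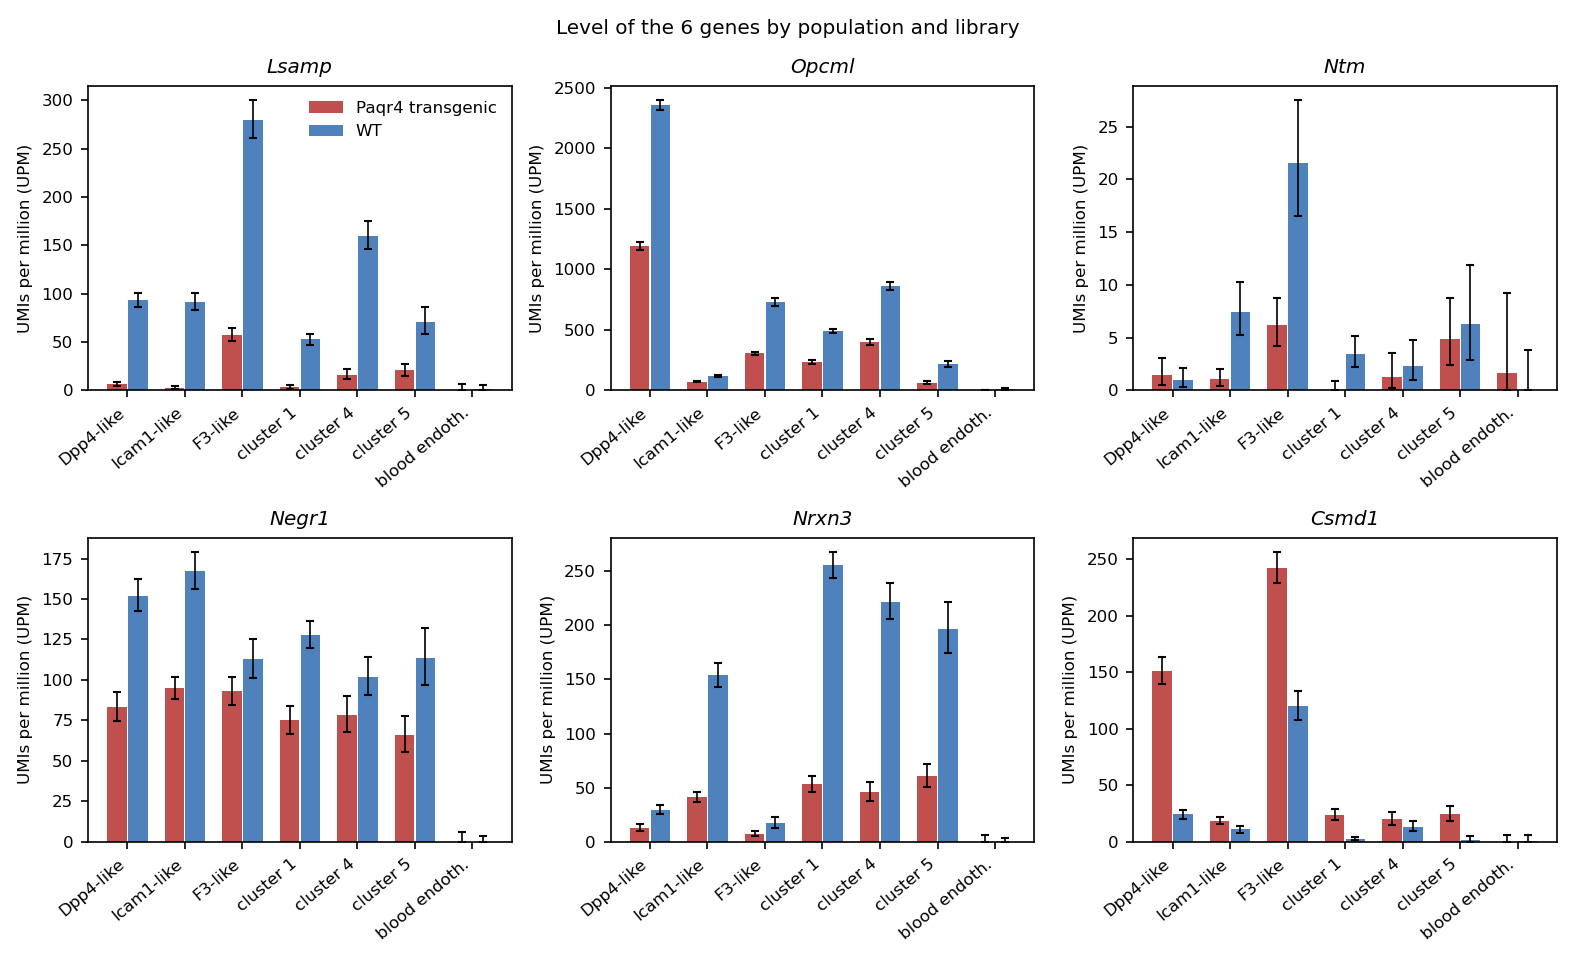
Level in UPM (y axis, linear, own scale per gene) of each member in 6 progenitor populations and blood endothelial cells (x axis), Paqr4 transgenic left and WT right, with exact Poisson 95% intervals. Opcml peaked in Dpp4-like cells at 1197 UPM in the Paqr4 transgenic and 2358 UPM in the WT library, Nrxn3 was low in Dpp4-like and F3-like cells, and Csmd1 was higher in the Paqr4 transgenic bars.

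Opcml, the opioid-binding cell adhesion molecule, was present in a large share of the progenitors, with 360 UPM (353 to 368) in Paqr4 transgenic and 923 UPM (911 to 935) in WT cells. The log2 ratio was −1.36 (−1.39 to −1.32). It was detected in 42.0% of Paqr4 transgenic and 62.7% of WT progenitors, or 33.7% and 53.8% at 5000 UMIs per cell. Positive cells held a median of 9 UMIs in the Paqr4 transgenic and 18 in the WT library, and the 5 richest cells held no more than 5.97% of the UMIs, so no handful of cells set the level.

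Opcml was highest in the Dpp4-like cells, although it was not among the variable genes that shaped the clusters. Dpp4-like cells, whose leading genes were Pi16, Cd55, Sema3e and Sfrp2, had 1197 UPM (1164 to 1230) in the Paqr4 transgenic and 2358 UPM (2320 to 2397) in the WT library, a log2 ratio of −0.98 (−1.02 to −0.93). Other progenitors of the same library had 200.1 UPM in Paqr4 transgenic and 472 UPM in WT cells, which made the Dpp4-like level 5.98-fold and 4.995-fold that of the rest. A UMI was found in 92.9% (88.1 to 96.1, Clopper-Pearson) of Paqr4 transgenic and 98.3% (95.7 to 99.5) of WT Dpp4-like cells, with a median of 24 and 52 UMIs per positive cell. Nearly every Dpp4-like cell thus carried Opcml in both libraries.

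Below the Dpp4-like cells, the order of the other 5 populations drawn was the same in both libraries as far as cluster 1. Cluster 4 came next with 399 UPM in Paqr4 transgenic and 865 UPM in WT cells, then F3-like cells with 305 and 731 UPM, and cluster 1 with 232 and 491 UPM. Icam1-like cells, with 70.8 UPM (65.0 to 76.9) in Paqr4 transgenic and 117 UPM (107 to 127) in WT cells, and cluster 5, with 64.2 UPM (54.1 to 75.5) and 216 UPM (192 to 241), had the lowest levels. Their intervals overlapped in the Paqr4 transgenic library and did not in the WT library. The log2 ratio lay between −1.75 (cluster 5) and −0.72 (Icam1-like) over these populations. Dpp4-like cells were 13.4% of Paqr4 transgenic and 20.8% of WT progenitors, and without them the ratio over progenitors was −1.24 (−1.29 to −1.19).

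Ntm, neurotrimin, was sparse, with 59 UMIs in 19 Paqr4 transgenic and 147 UMIs in 35 WT progenitors. These made 2.25 UPM (1.71 to 2.90) and 5.70 UPM (4.82 to 6.70) in the Paqr4 transgenic and WT libraries, a log2 ratio of −1.34 (−1.81 to −0.90). F3-like cells had the most, with 6.19 UPM in Paqr4 transgenic and 21.5 UPM in WT cells, but 21 of the 31 Paqr4 transgenic UMIs lay in 1 cell. In Dpp4-like cells 6 UMIs were counted in either library, and in cluster 1 there were 0 UMIs in Paqr4 transgenic and 24 in WT cells. Of the named states, F3-like and Icam1-like cells gave intervals of the ratio that left out 0. In cluster 1 the intervals of the level, 0 to 0.92 UPM in Paqr4 transgenic and 2.20 to 5.12 UPM in WT cells, did not overlap either. The UMIs lay in few cells, so these intervals are too narrow. Intervals of the share of cells with a UMI overlapped between the libraries in each of these populations. For Paqr4 transgenic and WT they were 0.60 to 4.21% and 3.67 to 12.6% in F3-like cells. In Icam1-like cells they were 0.27 to 2.52% and 0.95 to 5.52%, and in cluster 1 they were 0 to 1.95% and 1.02 to 5.12%. The Icam1-like WT value rested on 6 cells, and without the 5 richest cells of each library the ratio over all progenitors was −2.12.

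Negr1, the neuronal growth regulator, showed the smallest difference of the 6 between the libraries and the most even spread over states. It had 85.0 UPM (81.5 to 88.6) in Paqr4 transgenic and 135 UPM (130 to 139) in WT progenitors, and the log2 ratio was −0.67 (−0.74 to −0.59). A UMI was found in 32.3% of Paqr4 transgenic and 48.5% of WT progenitors, or 20.6% and 30.1% at 5000 UMIs. Over the 3 named states and clusters 1, 4 and 5 the level ran from 65.9 to 94.9 UPM in the Paqr4 transgenic library and from 102 to 167 UPM in the WT library. Every one of these 6 populations was lower in the Paqr4 transgenic library, from −0.87 (−1.05 to −0.69) in Dpp4-like to −0.28 (−0.48 to −0.07) in F3-like cells. Cluster 8 stood above them, with 419 UPM in 19 Paqr4 transgenic and 285 UPM in 45 WT cells, and here the Paqr4 transgenic level was the higher one. That level came from 118 UMIs in 10 cells, 44 of them in 1 cell. Intervals of the share of cells with a UMI overlapped, at 28.9 to 75.6% in Paqr4 transgenic and 33.7 to 64.2% in WT cells.

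Nrxn3, the neurexin, had 33.4 UPM (31.2 to 35.7) in Paqr4 transgenic and 145 UPM (141 to 150) in WT progenitors. The log2 ratio was −2.12 (−2.23 to −2.02). It was found in 9.08% of Paqr4 transgenic and 24.1% of WT progenitors, or 5.81% and 18.8% at 5000 UMIs. Cluster 5 had 60.6 UPM in Paqr4 transgenic and 197 UPM in WT cells, cluster 1 had 53.1 and 256 UPM, cluster 4 had 45.9 and 222 UPM, and Icam1-like cells had 41.2 and 154 UPM. Dpp4-like cells had 12.8 UPM in Paqr4 transgenic and 29.4 UPM in WT cells, and F3-like cells 7.18 and 17.2 UPM. Among the 6 progenitor populations drawn, Nrxn3 was thus low where Opcml (Dpp4-like) and Lsamp (F3-like) were highest, and its order put these last in both libraries. The intervals of clusters 4 and 5 overlapped in both libraries, and those of clusters 1 and 5 only in the Paqr4 transgenic one. The F3-like levels came from 9 cells with a UMI in either library and the Paqr4 transgenic Dpp4-like level from 10, so their intervals are too narrow. Intervals of the share of cells overlapped between Paqr4 transgenic and WT in both states. They were 1.51 to 6.14% and 2.74 to 10.9% in F3-like cells, and 2.67 to 9.87% and 5.96 to 13.8% in Dpp4-like cells.

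Nrxn3 was 1 of the 4 members used in the clustering (Lsamp, Ntm, Nrxn3 and Csmd1), so its order over clusters is partly made by the method. When all 6 members were left out of it, Nrxn3 still had 13.1 and 35.9 UPM in Paqr4 transgenic and WT Dpp4-like cells, 8.29 and 24.2 UPM in F3-like cells, and 42.2 and 174 UPM in Icam1-like cells.

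Csmd1 went the other way, with 85.5 UPM (82.0 to 89.1) in Paqr4 transgenic and 24.2 UPM (22.3 to 26.1) in WT progenitors. The log2 ratio was 1.82 (1.69 to 1.95). Few cells had it, 7.68% (6.32 to 9.23) of Paqr4 transgenic and 4.69% (3.54 to 6.10) of WT progenitors, or 5.89% and 2.81% at 5000 UMIs. The 5 richest cells held 34.4% of the UMIs in the Paqr4 transgenic and 44.0% in the WT library, with up to 233 and 122 UMIs in 1 cell. The Poisson intervals of its level and ratio are therefore too narrow, and the ratio was 2.67 when each library was clustered alone, which left fewer cells named as progenitors.

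F3-like cells, whose leading genes included C7, Prlr and Epha3, had 242 UPM (229 to 256) of Csmd1 in the Paqr4 transgenic and 120 UPM (108 to 133) in the WT library, a log2 ratio of 1.01 (0.84 to 1.19). The share of F3-like cells with a UMI was 15.0% (10.96 to 19.7) in the Paqr4 transgenic and 15.8% (10.4 to 22.6) in the WT library, so these overlapped, while the median in positive cells was 12 and 6 UMIs. In Dpp4-like cells the level was 151 UPM in Paqr4 transgenic and 24.3 UPM in WT cells (log2 2.64, 2.38 to 2.90), and here the share differed as well, at 14.3% (9.55 to 20.2) and 5.53% (2.98 to 9.27). Icam1-like cells had 18.6 UPM in the Paqr4 transgenic and 10.9 UPM in the WT library, from 11 and 5 cells with a UMI, and the log2 ratio of 0.77 became 0.08 after thinning. In clusters 1 and 4 the level was 24.0 and 19.9 UPM in Paqr4 transgenic cells, against 2.87 and 13.3 UPM in WT cells. In cluster 5, 55 UMIs were counted in Paqr4 transgenic cells, 54 of them in 1 cell, and 2 in WT cells. The ratio was above 0 in all 6 of these populations, and its interval included 0 in cluster 4 (−0.05 to 1.22).

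**Figure D2:**
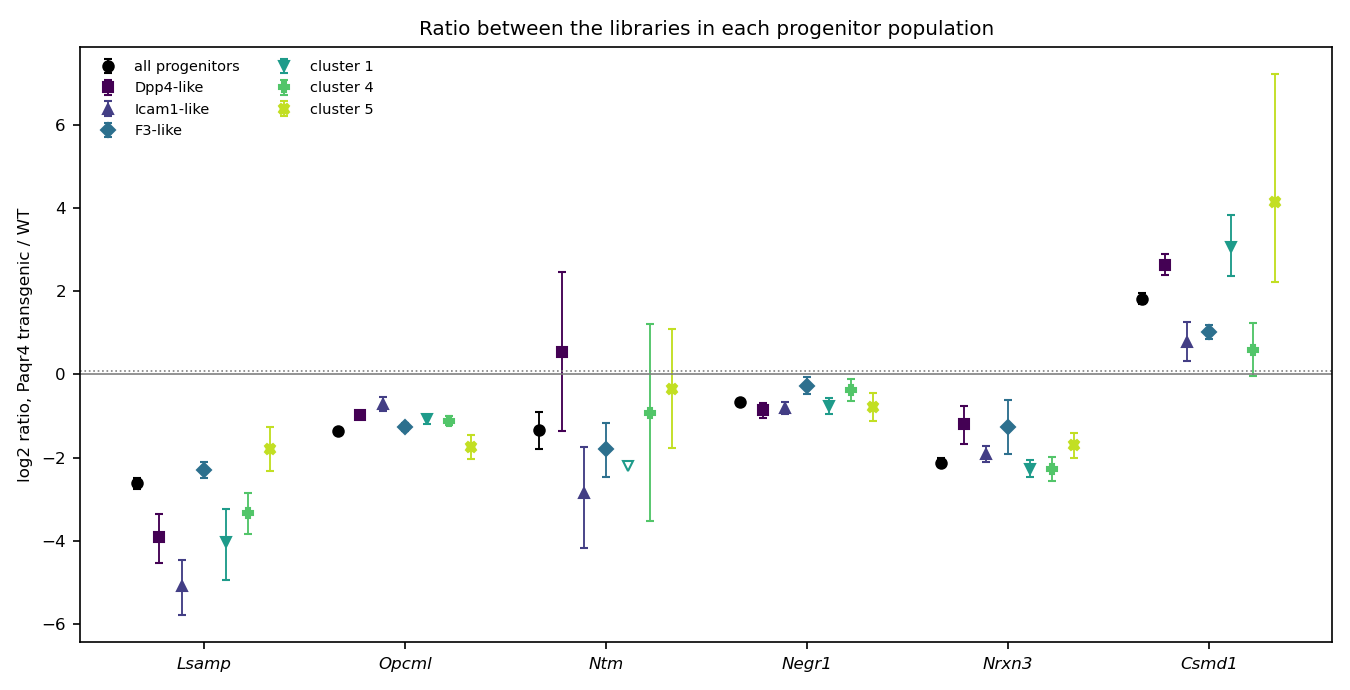
Log2 ratio of the level in the Paqr4 transgenic over the WT library (y axis) for each member (x axis) in all progenitors and 6 progenitor populations, with exact conditional binomial 95% intervals; the dotted line is the median of 8744 genes, 0.09, and the open triangle is a bound from 0 Paqr4 transgenic UMIs. Lsamp, Opcml, Negr1 and Nrxn3 lie below 0 in every population drawn and Csmd1 above it, while the points of Ntm lie on both sides.

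Blood endothelial cells were taken as a background for these genes, but not every other class was as low. Erythroid-like cells, led by haemoglobin genes, numbered 25 in the Paqr4 transgenic and 26 in the WT library. They had Opcml at 242 and 446 UPM, Negr1 at 42.0 and 127 UPM, and Nrxn3 at 31.5 and 109 UPM. Lsamp had 1 and 0 UMIs in them. The source of these UMIs was not tested. In 78 Paqr4 transgenic and 95 WT blood endothelial cells, at medians of 7591 and 9857 UMIs, Negr1 and Nrxn3 had 0 UMIs in both libraries. The Clopper-Pearson interval allows a share of cells with a UMI of up to 4.62% and 3.81% at that depth and sets no limit on cells that express the gene. Lsamp and Csmd1 had 0 UMIs in Paqr4 transgenic and 1 UMI in WT endothelial cells, and Ntm had 1 in Paqr4 transgenic and 0 in WT cells. Opcml had 0 UMIs in Paqr4 transgenic endothelial cells and 11 in WT ones, all 11 in 1 cell. With all cells thinned to 5000 UMIs, the progenitor shares of Opcml and Negr1 lay above the endothelial intervals in both libraries, and those of Lsamp and Nrxn3 did so in the WT library. Nrxn3 was then in 5.81% (4.61 to 7.22) of Paqr4 transgenic progenitors and 0% (0 to 5.69) of Paqr4 transgenic endothelial cells, so these intervals overlapped. The thinned shares of Lsamp in Paqr4 transgenic cells and of Csmd1 in both libraries overlapped the endothelial ones as well. The levels in UPM of these 5 genes lay above the endothelial intervals in both libraries. Ntm, in 1.40% of Paqr4 transgenic progenitors and 1.28% of Paqr4 transgenic endothelial cells, could not be told from that background by its share. Near-empty barcodes, those of at most 50 UMIs and so mostly RNA outside cells, held Opcml at 176 UPM (158 to 196) in the Paqr4 transgenic and 178 UPM (164 to 193) in the WT library, Lsamp at 8.59 and 25.9 UPM, and Negr1 at 28.3 and 23.2 UPM. Nrxn3 stood at 17.2 and 29.8 UPM and Csmd1 at 33.4 and 11.7 UPM in these near-empty barcodes of the Paqr4 transgenic and WT libraries, so Lsamp, Nrxn3 and Csmd1 differed there in the same direction as in progenitors, and the intervals of Opcml and Negr1 overlapped. Some low states lay below these levels in both libraries. They were Nrxn3 in Dpp4-like (12.8 and 29.4 UPM) and F3-like cells (7.18 and 17.2 UPM), and Opcml in Icam1-like cells (70.8 and 117 UPM). Lsamp did so in Paqr4 transgenic Dpp4-like (6.16 UPM) and Icam1-like cells (2.69 UPM). The part of free RNA in these low levels, and in their ratios, was not tested.

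**Figure D3:**
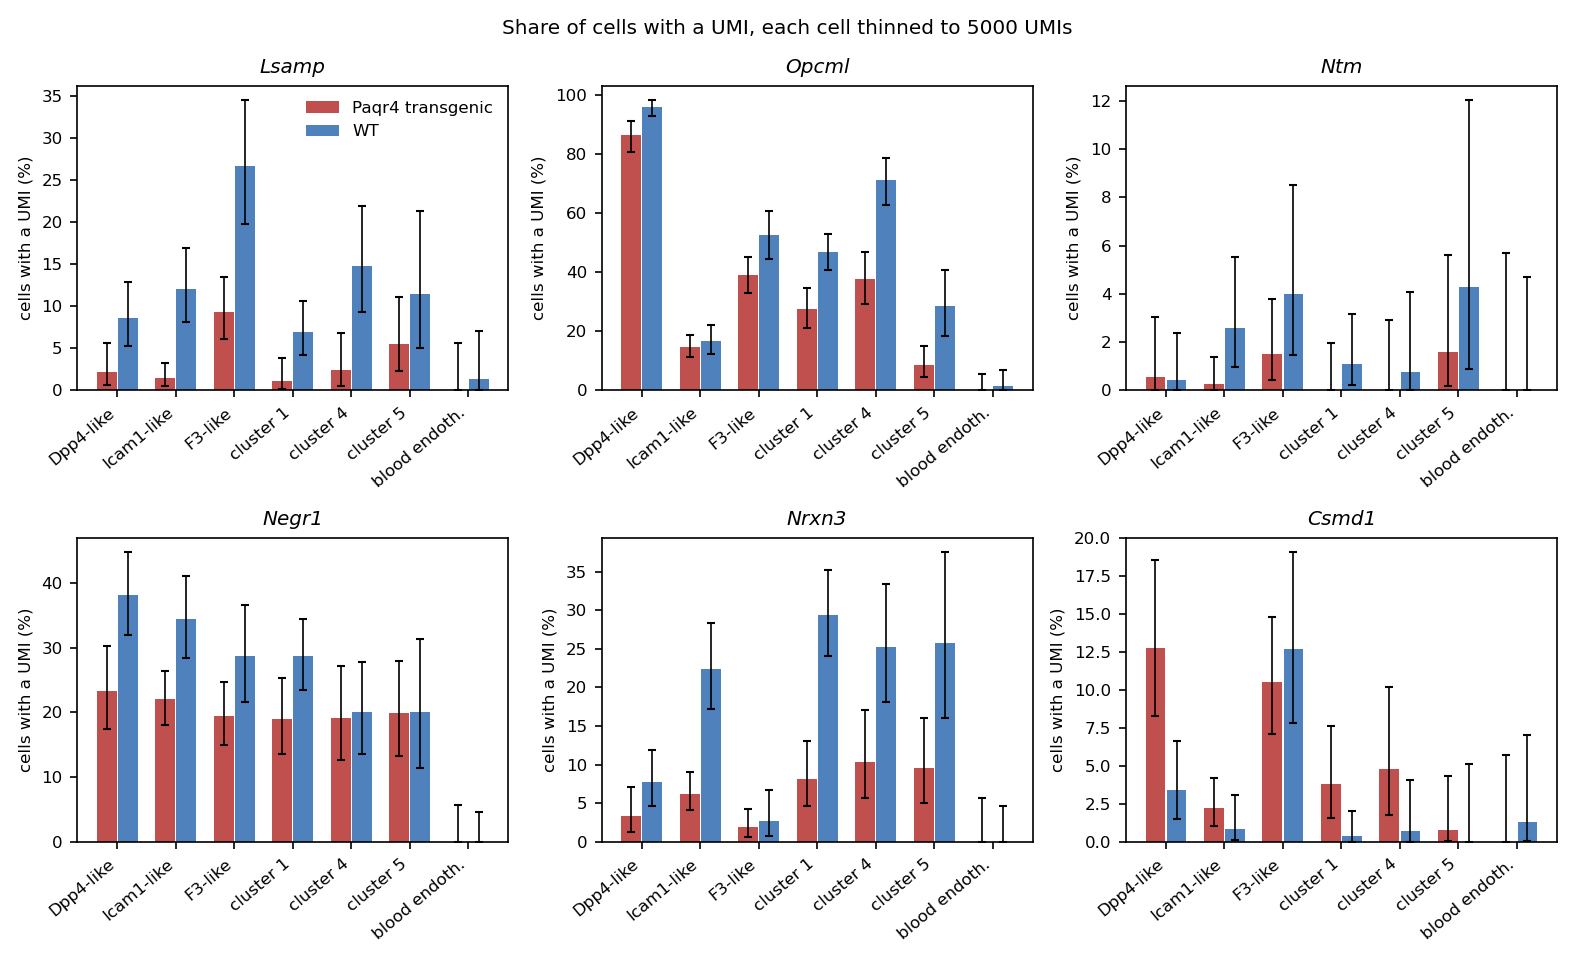
Share of cells with at least 1 UMI of each member (y axis, percent, own scale per gene) after thinning to 5000 UMIs per cell, by population (x axis), Paqr4 transgenic left and WT right, with Clopper-Pearson 95% intervals. Opcml was found in 86.7% of Paqr4 transgenic and 96.1% of WT Dpp4-like cells, and Negr1 and Nrxn3 in no blood endothelial cell.

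Cells with UMIs of more than 1 member were counted next. Among progenitors, 31.9% of Paqr4 transgenic and 11.2% of WT cells had none of the 6 at full depth, 20.9% and 37.5% had 2, and 4.14% and 15.9% had 3 or more. At 5000 UMIs per cell, 12.4% of Paqr4 transgenic and 27.9% of WT progenitors had 2. At that depth the interval of observed cells over those expected from the product of the shares included 1 for every pair in the Paqr4 transgenic library. In the WT library it did so for all pairs but Lsamp with Nrxn3 and Nrxn3 with Csmd1. At full depth, Lsamp and Ntm met in 5 Paqr4 transgenic cells, where 0.95 would follow (ratio 5.24, 1.70 to 12.2), and in 12 WT cells, where 6.11 would (1.96, 1.02 to 3.43). Within clusters 1.18 and 7.48 would follow, and at 5000 UMIs both intervals included 1. Full depth also left out 1 for Nrxn3 with Csmd1 in 3 Paqr4 transgenic cells, where 9.45 would follow (0.32, 0.07 to 0.93). It did so for Lsamp with Nrxn3 in 32 WT cells, where 47.5 would follow (0.67, 0.46 to 0.95). At 5000 UMIs, Lsamp and Opcml were together in 21 Paqr4 transgenic cells, where 16.2 would follow from the shares (ratio 1.30, 0.80 to 1.99), and in 87 WT cells, where 74.8 would (1.16, 0.93 to 1.43). At 5000 UMIs, Nrxn3 and Csmd1 met in 1 cell of either library, where 4.48 would follow in the Paqr4 transgenic and 5.84 in the WT library. When expectations were summed within clusters, these became 3.14 and 1.98 cells. Lsamp and Nrxn3 met in 3 Paqr4 transgenic cells, where 2.79 would follow, and in 12 WT cells, where 26.2 would (0.46, 0.24 to 0.80) or 18.5 within clusters. These counts are small and the cells of a library share their source, so no pair is called linked or exclusive.

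**Figure D4:**
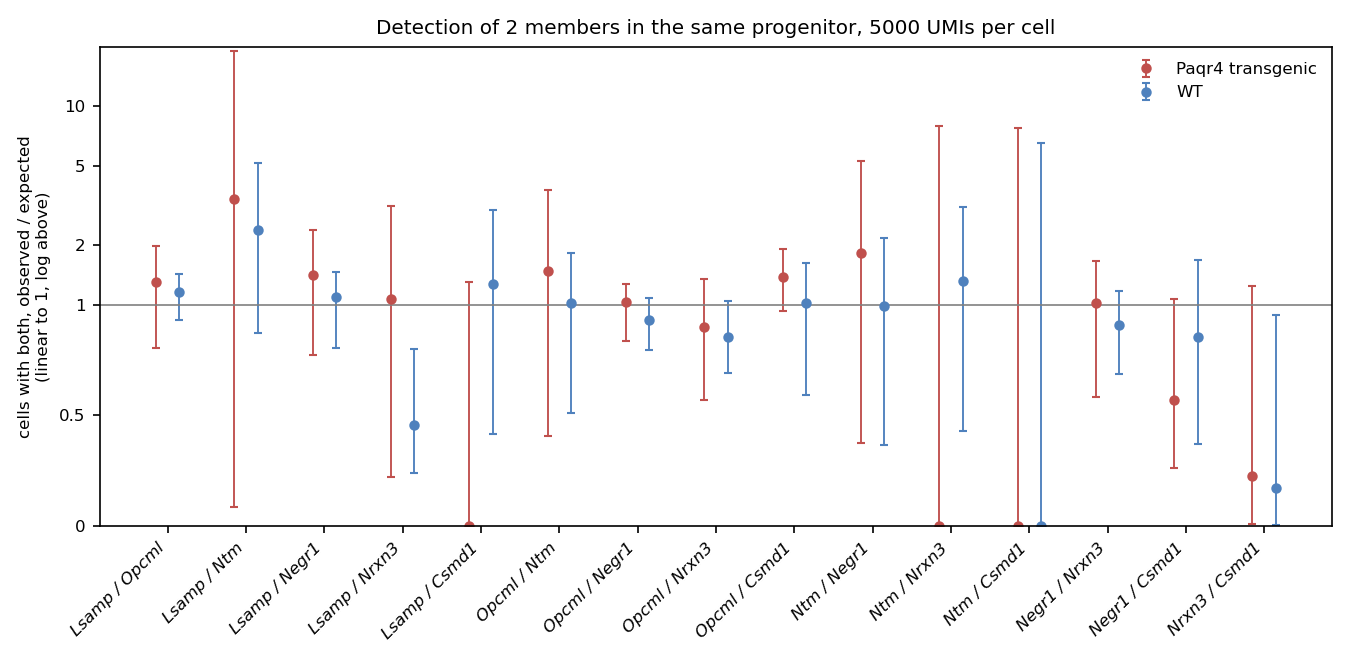
Cells with both members of a pair over the number expected from the 2 shares (y axis, linear to 1 and logarithmic above) for the 15 pairs (x axis) in progenitors thinned to 5000 UMIs, Paqr4 transgenic left and WT right, with Poisson 95% intervals on the observed count. The interval leaves out 1 only for Lsamp with Nrxn3 and Nrxn3 with Csmd1, both in the WT library and both below 1.

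The wider gene lists were drawn up with earlier results of these libraries known. Outside the IgLON and CSMD families, lists of adhesion and guidance genes with more than 1 gene at 10 UPM had medians between −0.15 and 0.13. Genes lower by at least 1 log2 unit were 2 of 19 for axon guidance, 1 of 4 teneurins and FLRT proteins and 1 of 5 other immunoglobulin genes. Of those 5, 1 was higher by as much, as was 1 of 9 neurexins and partners. Over all genes, 0.778% were lower and 0.755% higher by as much. Of all 8744 genes at 10 UPM or more, 5867 were higher and 2877 lower in the Paqr4 transgenic library, with a median log2 of 0.09. Of the IgLON family, Iglon5 stayed below 10 UPM. Of 9 neurexins and partners at 10 UPM or more, 4 were higher and 5 lower in the Paqr4 transgenic library (median log2 −0.11), Nrxn3 included. The postsynaptic neurexin partner Lrrtm3 had 17.9 UPM in Paqr4 transgenic and 3.10 UPM in WT progenitors (log2 2.53, 2.19 to 2.89), with 52.5% of its WT UMIs in 5 cells; it lies inside Ctnna3 on the opposite strand, which stood at 35.2 and 23.4 UPM. Nlgn2, a neuroligin, had 27.2 UPM in Paqr4 transgenic and 36.6 UPM in WT progenitors (log2 −0.43). In the L1 and NCAM class, Nrcam was the one gene at 10 UPM or more, with 19.95 and 39.7 UPM in Paqr4 transgenic and WT progenitors (log2 −0.99, −1.15 to −0.84).

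Of 19 axon guidance genes, 7 were higher and 12 lower in the Paqr4 transgenic library (median log2 −0.07), beside 5867 higher and 2877 lower of all 8744 genes. The Slit receptor Robo2 had 27.7 UPM in Paqr4 transgenic and 57.2 UPM in WT progenitors (log2 −1.04), the ephrin receptor Epha7 6.43 and 13.7 UPM (−1.09), and Ntn1, the guidance cue netrin, 146 and 92.7 UPM (0.65). Among 4 teneurins and FLRT proteins, Tenm4 had 3.62 UPM in Paqr4 transgenic and 10.2 UPM in WT progenitors (log2 −1.502), with 72.6% of its Paqr4 transgenic UMIs in 5 cells, while Tenm3 had 373 and 359 UPM (0.06). Among 6 cadherins, 3 were higher and 3 lower, and the protocadherin Pcdh9 had 179 UPM in Paqr4 transgenic and 346 UPM in WT progenitors (log2 −0.95). Among 5 other immunoglobulin adhesion genes, Hmcn2, a matrix hemicentin, had 231 and 80.5 UPM in Paqr4 transgenic and WT progenitors (log2 1.52), and Alcam 25.7 and 51.7 UPM (−1.01). Of 6 receptor phosphatases and ligands, 3 were higher and 3 lower, with Ntrk3 at −0.80. The 4 synaptic adhesion molecules and nectins lay between −0.18 (Cadm1) and 0.02 (Nectin1).

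Genes that act on IgLON proteins differed little. Adam10, a protease that sheds membrane proteins, had 65.6 UPM in Paqr4 transgenic and 54.1 UPM in WT progenitors (log2 0.28, 0.17 to 0.38), and the other 3 proteases at 10 UPM or more lay between −0.19 and −0.09. Of 4 genes for attaching GPI anchors, Piga was at −0.28 and the others between 0.07 and 0.15. In a separate list of 5 RNAs kept in the nucleus, Malat1, Neat1 and Meg3 had log2 ratios of 0.30, 0.34 and 0.24, and 2 were lower. Xist, 1 of these 2, was lower by at least 1 log2 unit, with a UMI in 0.222% of Paqr4 transgenic and 94.3% of WT progenitors.

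Long genes as a class were set beside the members. Of 110 other genes at 10 UPM or more that span over 500 kb, 9.09% were lower by at least 1 log2 unit in the Paqr4 transgenic library and 0 were higher, with a median of −0.01. In the shorter classes 0.477% to 1.63% were lower, and the class of 200 to 500 kb had a median of 0.11. All genes of this span, members included, took 4.07% of Paqr4 transgenic and 4.15% of WT progenitor UMIs. The part of gene span in the members' ratios was not tested.

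**Figure D5:**
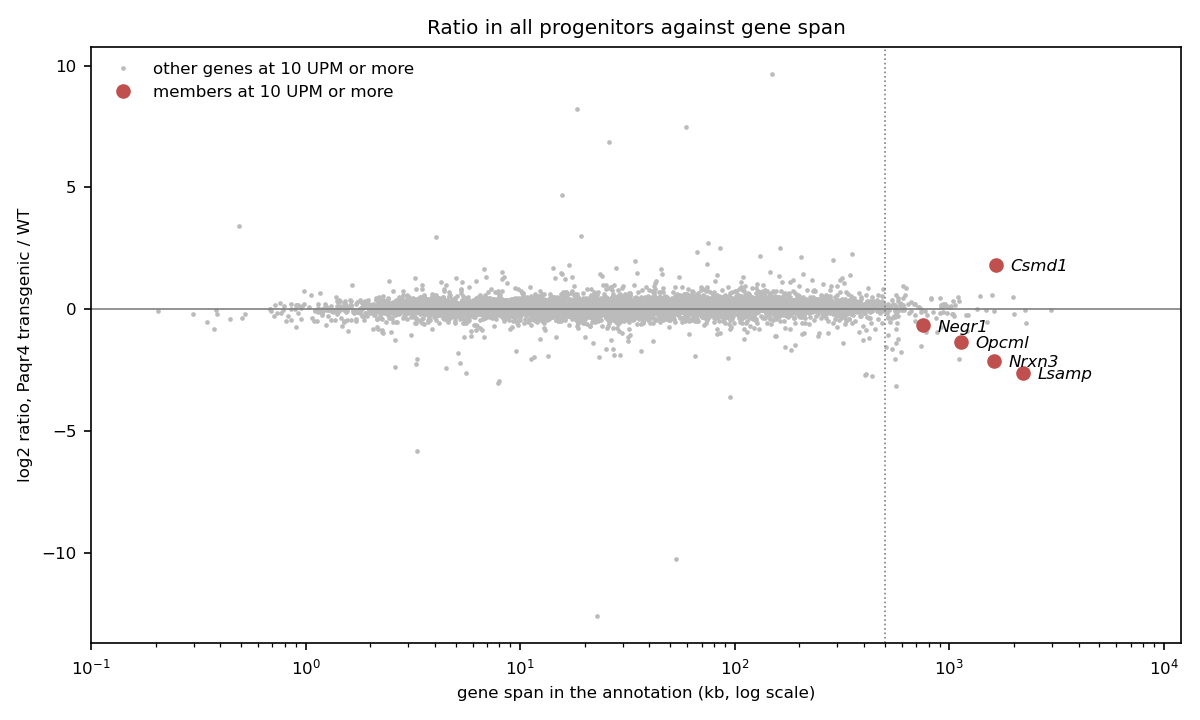
Log2 ratio of the level in Paqr4 transgenic over WT progenitors (y axis) against the span of the gene in kb (x axis, log scale) for genes at 10 UPM or more; red points are the 5 members at that level and the dotted line is at 500 kb. Csmd1 lies above the other long genes at 1.82, and Lsamp, Nrxn3, Opcml and Negr1 lie below the bulk of them.

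The genes whose levels followed each member most closely were taken over 14 points, the 6 largest progenitor clusters and blood endothelial cells in both libraries, among 8934 genes. The points share libraries and depth, and the endothelial ones lie near 0 for every member, which raises any such correlation. Opcml was closest to Fn1, the matrix protein fibronectin, at a Pearson r of 0.97, then to 1700019D03Rik and Tubb4a. Lsamp was closest to Rps21 (0.90), Mfap2 and Neo1, and Ntm to Fam13a (0.94), Prlr and Mxi1. Negr1 was closest to Plac8 (0.99), C1s1 and Naaa, Nrxn3 to mt-Co1 (0.95), Dusp1 and Ezh2, and Csmd1 to Zfp704 (0.88), Srebf1 and Mia3. No member was among the 3 closest genes of another, and r between members ran as high as 0.85 for Opcml with Negr1 and as low as 0.09 for Nrxn3 with Csmd1.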

How the data were processed

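Single-cell RNA was measured in 1 Paqr4 transgenic and 1 WT library. The deposited matrices hold raw UMI counts for all barcodes, not normalised by the authors. Cell Ranger 7.0.0 and mm10 stand in the submitters' processing notes and Cell Ranger 4 in the file headers. No source used here says whether introns were counted. Features with the same symbol were summed. Doublets were called with Scrublet in each library (scanpy 1.11.5). Cells were clustered on 2000 variable genes, 30 components and a shared-neighbour graph of 15 neighbours (edges of Jaccard weight 0.143 or more) by Leiden (leidenalg 0.10.2, resolution 0.5), with no correction between libraries, and named from 18 marker lists. The edge weight and the naming thresholds were chosen after clusters had been seen: a class needed 50% and at least 3 of its markers on (25% of the highest cluster and 20 UPM), and a state 3 markers at 1.5-fold over other progenitors. Differences between clusters in their leading genes are not results.

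Levels are UMIs per 1000000 of the population with exact Poisson intervals, shares have Clopper-Pearson intervals, and ratios have exact conditional binomial intervals (scipy 1.17.1), all for counting error only. A gene at 0 was set to 3 UMIs for a ratio. Populations with at least 50 cells in both libraries were compared. Members, lists and alternatives were chosen with earlier results of these data known. All members are named, with up to 4 genes per list at 10 UPM or more that had the largest ratio and the 3 genes closest to each member by Pearson correlation of log2(UPM + 1) among genes at 20 UPM or more in a point. Sequences are from RefSeq (GRCm38.p6). Ratios, intervals, thinning and pair counts were tested on simulated data.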

Additional observations from a re-analysis of the deposited data

How the results depend on the processing

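Of 66 log2 ratios over all progenitors under 11 other settings, 47 stayed within the counting interval of the reported value, 19 moved beyond it and 0 changed sign. Cells with at least 2000 UMIs, 1000 genes and at most 5% mitochondrial UMIs gave −2.37 for Lsamp, −1.21 for Opcml, −2.01 for Nrxn3 and 1.95 for Csmd1. Each library clustered alone gave −3.15 for Lsamp, −1.31 for Opcml and 2.67 for Csmd1. In both of these settings some clusters of progenitors stayed unnamed, which left 921 Paqr4 transgenic and 895 WT progenitors in the first and 959 and 1039 in the second. The first put 492 Paqr4 transgenic and 311 WT cells in the F3-like state, against 274 and 152 in the main clustering. The second named 0 Paqr4 transgenic and 332 WT cells F3-like, so it gave no F3-like ratio. The F3-like values thus depend on how the cells were divided. Thinning to 5000 UMIs gave −2.39 for Lsamp and −0.53 for Negr1. Equal weight of the named states gave −2.81 for Lsamp, −1.03 for Opcml, −1.71 for Nrxn3 and 1.41 for Csmd1, and equal weight per cell gave −2.45 for Lsamp. Without the 5 richest cells of each library the ratio was −2.95 for Lsamp, −2.12 for Ntm and 2.05 for Csmd1. Scaling to the median gene gave −1.44 for Opcml and −0.75 for Negr1. The cause of the moves was not tested. Within the named states, 90 of 136 ratios stayed within the interval and 0 changed sign; the widest ranges were 0.08 to 7.41 for Csmd1 and −6.40 to −2.72 for Lsamp in Icam1-like cells and −7.15 to −3.29 for Lsamp in Dpp4-like cells, a library left with 0 UMIs being counted at the floor of 3. Beside the members, the lists held 129 other genes, not all of them at 10 UPM or more. At that level, 5 of them were lower and 2 higher by 1 log2 unit. These counts cover only the listed genes at 10 UPM or more, so 129 is not their base. Xist, which marks the difference in sex, was among the lower ones. Over all 8744 genes at 10 UPM or more, 0.778% were lower and 0.755% higher by as much. The counts for the lists became 3 and 1 at 50 UPM or more, and 15 and 6 with no minimum. No paired analysis was possible because each genotype has 1 library. Depth limits Ntm, all members in endothelial cells and every population under 50 cells; how mice vary is not known.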

Other observations

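Populations too small to compare held some of these genes at levels unlike the progenitors. All 3 Paqr4 transgenic and all 6 WT Schwann-like cells carried Csmd1, at 14048 and 12700 UPM. Csmd1 was among the genes that shaped this cluster, and the progenitors had 85.5 and 24.2 UPM in the Paqr4 transgenic and WT libraries. Pericyte or smooth muscle-like cells, 7 Paqr4 transgenic and 13 WT, had Ntm at 147 UPM (63.6 to 290) and 878 UPM (734 to 1041), and Lsamp at 129 and 592 UPM, with 0 UMIs of Opcml in either library. Mesothelial-like cells, 11 Paqr4 transgenic and 13 WT, had Opcml at 333 and 441 UPM and 0 UMIs of Lsamp and Csmd1. Epithelial-like cells, 6 Paqr4 transgenic and 9 WT, had Csmd1 at 203 and 599 UPM, from 2 and 3 cells with a UMI. Of 6 Paqr4 transgenic lymphatic endothelial-like cells, 1 held all 26 UMIs of Nrxn3 counted in that class. A cluster of 5 Paqr4 transgenic and 25 WT cells, led by Clps, Ctrb1 and Cela3b, matched no listed class. Where these cells came from was not tested.

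Outside the members, the 10 genes over 500 kb that were lower by at least 1 log2 unit in the Paqr4 transgenic progenitors were Kcnq5, Thsd4, Frmpd4, Fgf12, Adgrv1, Fgf13, Tenm4, Fam155a, Rgs6 and Robo2, named here after their values were seen. Kcnq5, a potassium channel, had 3.43 UPM in Paqr4 transgenic and 30.3 UPM in WT progenitors. Rgs6, a regulator of G protein signalling, had 214 and 500.2 UPM, and Fam155a, a subunit of a sodium leak channel, 57.3 and 148 UPM.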
